A study of Mus musculus with 8 samples.

Results

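The miRNAs described here are mmu-miR-1a-3p, mmu-miR-133a-3p and mmu-miR-133a-5p (written below without the prefix for mouse), that is, the 3p arm of mouse miR-1a and both arms of mouse miR-133a. These 3 were taken by name from the 1881 mouse miRNAs on the array, and the rule that picks them uses no measured value. miRNAs released into the culture medium by primary skeletal myocytes were profiled on 8 one-colour Agilent miRNA arrays, 1 array per medium sample. The cells came from the hind limb muscles of pups 1 to 3 days old, labelled male, and grew in transwell plates, in which cells on a porous insert share the medium with cells in the chamber below but do not touch them.

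The co-cultures compared were 3, each named here as bottom chamber/insert. G93A/G93A (n = 3 arrays) had myocytes of the strain B6SJL(Tg-SOD1*G93A)1Gur/J, which carries human SOD1 with the G93A mutation and serves as a model of amyotrophic lateral sclerosis, in both places. G93A/WT (n = 3) had these cells in the bottom chamber and cells of the strain B6SJL(Tg-SOD1)2Gur/J, which carries the unmutated human SOD1, in the insert. WT/WT (n = 2) had the unmutated transgene in both places. All groups therefore carried a human SOD1 transgene, from colonies kept by breeding hemizygous males, and cells without one were not analysed here. The bottom chamber received more myoblasts (2.5) than the insert (1.5, both in units of 1e5 cells), the insert's pores were 0.4 µm, and the medium was taken at 2 days in vitro without any treatment. Proliferation medium held 10% foetal bovine serum, and a bovine miRNA with the sequence of a mouse one would give the same signal.

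miR-1, miR-133a and their relatives miR-206 and miR-133b are called myomiRs, because striated muscle makes most of them. A miRNA hairpin is cut into a 5p and a 3p strand, of which one is usually kept in the silencing complex and the other, the passenger strand, is mostly degraded. miR-1 promotes the differentiation of myoblasts, while miR-133a is known to favour their proliferation and to repress serum response factor. The seed, bases 2 to 8 of the miRNA, chooses its targets. miR-1 belongs to one seed family with miR-206, a miRNA of skeletal muscle, and miR-133a-3p to another with miR-133b-3p.

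Of the 18 muscle miRNA arms considered (the miR-1, miR-133, miR-206, miR-208 and miR-499 families), 11 had a mature sequence in the RefSeq table of build GRCm38.p6. The following are shown because they stand for the seed families of miR-1a-3p and miR-133a-3p and for the passenger strands with which miR-133a-5p is compared. Capitals mark the seed.
miR-206-3p, chr1:20679055-20679076, plus strand: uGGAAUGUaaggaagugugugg
miR-133b-3p, chr1:20682834-20682855, plus strand: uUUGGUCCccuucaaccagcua
miR-133b-5p, chr1:20682797-20682818, plus strand: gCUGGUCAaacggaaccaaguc
miR-206-5p, chr1:20679017-20679039, plus strand: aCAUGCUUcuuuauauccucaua
The seed GGAAUGU of miR-206-3p was found in 3 mature miRNAs of that table (miR-206-3p, miR-6349 and miR-6382), and UUGGUCC of miR-133b-3p in 1. The members miR-1a-3p, miR-133a-3p and miR-133a-5p had no mature sequence there, so these counts leave them out. miR-133a-3p and miR-133b-3p are known to differ only at their last base, so each probe may also bind the other miRNA, and the extent of this was not measured.

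In the RefSeq annotation (assembly GRCm38.p6, used here for names and neighbours only), Mir1a-1 and Mir133a-2 neighbour each other inside the non-coding RNA gene Mir1a-1hg. Mir1a-2 and Mir133a-1 neighbour each other inside Mir133a-1hg, and both also lie within the gene Mib1. The strands miR-1a-3p, miR-133a-3p and miR-133a-5p have 1 entry each on the array, so the 2 loci are not told apart for them. Mir206 and Mir133b form a further pair inside Lincmd1.

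The arrays carried 1881 mouse miRNAs, of which 423 were detected on all 8 arrays, 1295 on none and 538 on at least 2. The 538 were tested together. The number detected was 451 to 483 on G93A/G93A arrays, 497 to 563 on G93A/WT arrays and 450 to 461 on WT/WT arrays, and the summed signal ran from 115122 to 202908 array units with its highest value on G93A/WT 2. Signals were therefore scaled so that every array had the same 75th percentile over the 423 common miRNAs, which multiplied the G93A/WT arrays by 0.593 to 0.933 and the other 5 by 0.973 to 1.44. All arrays lay on 1 slide. The G93A/G93A arrays shared the second row of that slide with WT/WT 2, and the G93A/WT arrays its first row with WT/WT 1. No row held both G93A/G93A and G93A/WT. The equal RNA input (150 ng of small RNA) and the scaling mean that a level is a share of the miRNAs present: release by each cell, the number of cells and the loss of other miRNAs cannot be told apart.

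Muscle miRNAs were plainly present in the medium. The summed scaled level of a list of 6 muscle markers was 4094 to 5063 in G93A/G93A, 4341 to 5258 in G93A/WT and 4522 to 5194 in WT/WT media. Of the 6, 4 were detected on every array, miR-499-5p on G93A/WT 2 alone and miR-208b-3p on none. Of lists for other cells, the epithelial one (7 miRNAs) summed to 0 to 5.36 in G93A/G93A, 61.2 to 85.0 in G93A/WT and 138 to 166 in WT/WT media, with miR-200a-3p and miR-141-3p on no array. Its part in the results below was not tested. The leukocyte list (4 miRNAs) summed to 131 to 159 in G93A/G93A, 133 to 146 in G93A/WT and 99.3 to 107 in WT/WT media, with 1 of the 4 on all arrays and the others (miR-142a-3p, miR-142a-5p and miR-150-5p) on none. The neuronal list (3 miRNAs) summed to 90.3 to 117 in G93A/G93A, 88.2 to 111 in G93A/WT and 95.5 to 103 in WT/WT media, with 1 of the 3 on all arrays and miR-124-3p and miR-9-5p on none. The fibroblast list (5 miRNAs) summed to 343 to 430 in G93A/G93A, 415 to 553 in G93A/WT and 475 to 517 in WT/WT media. Of the 5, 4 were detected on all arrays and miR-145a-5p on none. In the same groups the endothelial list (2 miRNAs) summed to 93.1 to 101, 87.4 to 113 and 109 to 119, with 1 of the 2 on all arrays and miR-126a-5p on none. The liver list (1 miRNA) summed to 5.01 to 5.32, 4.03 to 5.56 and 0 to 3.46. The part of these cells in the results was not tested either.

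mmu-miR-1a-3p, the strand of the miR-1a hairpins that acts in muscle, was detected on all 8 arrays at nearly the same level in every co-culture. The scaled signal was 163, 207 and 171 array units in G93A/G93A media, 162, 151 and 190 in G93A/WT media and 171 and 170 in WT/WT media. Both WT/WT values lay inside the range of either other group, and all 3 groups overlapped. On the log2 scale the means were 7.49 ± 0.18 in G93A/G93A (SD, n = 3), 7.38 ± 0.17 in G93A/WT (n = 3) and 7.41 ± 0.003 in WT/WT media (n = 2).

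The 3 means of miR-1a-3p lay within 0.11 log2 units of each other, less than the SD between media of either group of 3. G93A/G93A minus WT/WT was 0.08 (SE 0.15, adjusted p = 0.817, limma with Benjamini-Hochberg adjustment over all 538). The 95% interval of this difference, -0.28 to 0.43, corresponds to 0.83 to 1.35 times the WT/WT level. G93A/WT minus WT/WT was -0.03 (SE 0.15, 95% interval -0.38 to 0.32, adjusted p = 0.908 in limma). G93A/G93A minus G93A/WT was 0.11 (SE 0.13, 95% interval -0.21 to 0.42, adjusted p = 0.605 in limma). The sign of the G93A/WT difference depended on the scaling: it was 0.07 after quantile normalization and 0.74 without any scaling, where the median of all tested miRNAs shifted by 0.79.

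Within slide rows, the differences of miR-1a-3p were 0.08 (G93A/G93A minus WT/WT) and -0.03 (G93A/WT minus WT/WT). The scanner software's own error for miR-1a-3p was 9.26 to 9.93% of its signal. The spread between the 3 media of G93A/G93A was 1.33 times this error and that of G93A/WT 1.27 times. Its SD pooled over the groups (0.158 log2 units) stood 244th from the highest among the 423 common miRNAs, whose median was 0.173.

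mmu-miR-133a-3p, the abundant strand of miR-133a, was detected on all 8 arrays and differed far more between media than miR-1a-3p did. The scaled signal was 312, 655 and 851 array units in G93A/G93A media, 652, 807 and 754 in G93A/WT media and 497 and 489 in WT/WT media. G93A/G93A spanned the whole range of the series, with both its lowest and its highest value. All 3 G93A/WT values lay above both WT/WT values. The log2 means were 9.12 ± 0.75 in G93A/G93A (SD, n = 3), 9.52 ± 0.16 in G93A/WT (n = 3) and 8.95 ± 0.02 in WT/WT media (n = 2).

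No difference of miR-133a-3p between co-cultures passed the threshold of an adjusted p of 0.05. G93A/WT minus WT/WT was 0.58 (SE 0.39, 95% interval -0.34 to 1.49, adjusted p = 0.366 in limma), a level 1.49 times that of WT/WT in an interval of 0.79 to 2.81 times. All 3 groups share one spread in this fit, and that of G93A/G93A was the widest. With only G93A/WT and WT/WT fitted, the difference was unchanged and its SE was 0.12 (adjusted p = 0.0564 in limma). Leaving out G93A/G93A 1 gave an SE of 0.16 (adjusted p = 0.0843 in limma). Without scaling this difference was 1.35 and passed (adjusted p = 0.0457 in limma), beside the general shift of 0.79 already given. G93A/G93A minus WT/WT was 0.18 (SE 0.39, 95% interval -0.73 to 1.09, adjusted p = 0.829 in limma). Fitted with only these groups, this difference had an SE of 0.51. Leaving out G93A/G93A 3 turned it to -0.12, leaving out G93A/G93A 1 gave 0.60, and the 3 media thus set no direction. G93A/G93A minus G93A/WT was -0.40 (SE 0.34, 95% interval -1.21 to 0.42, adjusted p = 0.454 in limma), and 0.02 without G93A/G93A 1. Within slide rows the differences from WT/WT were 0.19 (G93A/G93A) and 0.56 (G93A/WT, adjusted p = 0.177 in limma).

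**Figure D1:**
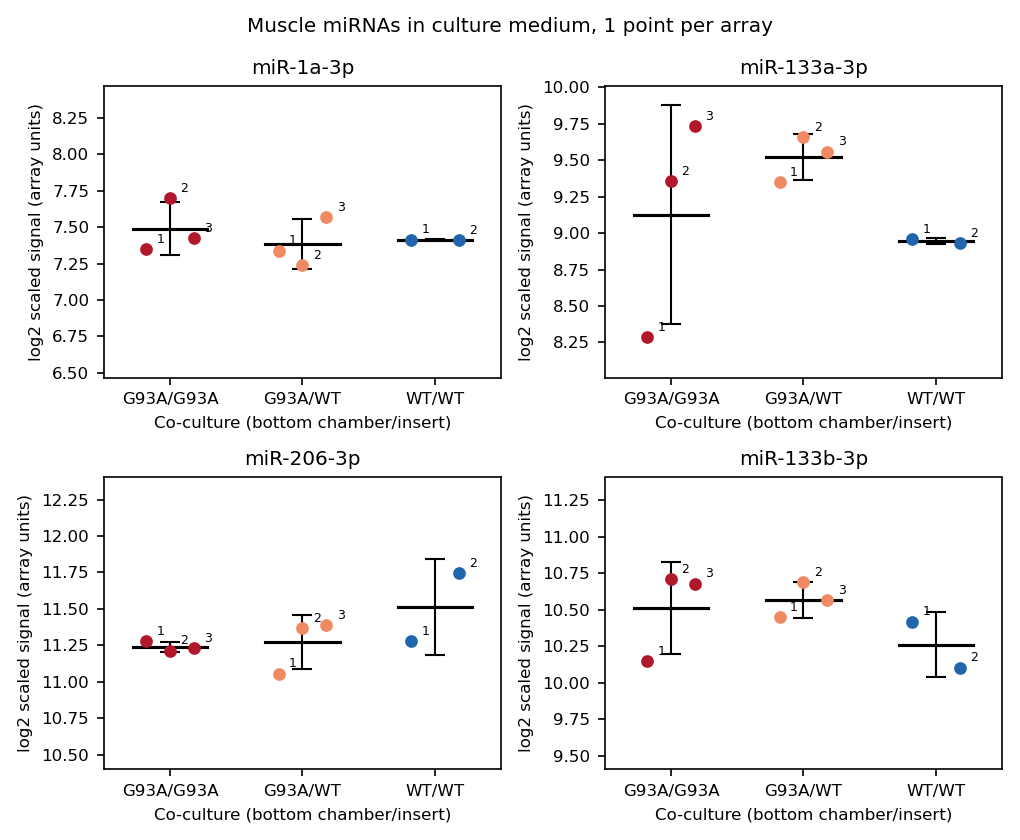
Log2 scaled signal (array units, vertical axis) of miR-1a-3p, miR-133a-3p and their relatives miR-206-3p and miR-133b-3p in the 3 co-cultures, 1 numbered point per array; the horizontal bar is the mean and the error bar ± 1 SD, and every panel spans the same width on the log2 axis. The G93A/G93A points of miR-133a-3p lie between 8.28 and 9.73, while all miR-1a-3p points lie between 7.24 and 7.70.

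The spread of miR-133a-3p within G93A/G93A was among the widest measured. Its highest value was 2.73 times its lowest, against 1.24 times in G93A/WT and 1.02 times in WT/WT media. The SD of 0.75 stood 7th from the highest among the 423 common miRNAs in that group, whose median SD was 0.178. It was 5.84 times the array's own error for this miRNA, which was 8.18 to 11.2% of its signal over the 8 arrays. The close agreement of the WT/WT media rests on 2 arrays.

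Ratios within an array need no scaling, because both signals come from 1 hybridisation, and only their change between co-cultures is read, since different probes bind with different strength. The log2 ratio of miR-133a-3p over miR-1a-3p was 0.93, 1.66 and 2.31 in G93A/G93A media, 2.01, 2.42 and 1.99 in G93A/WT media and 1.54 and 1.52 in WT/WT media. Relative to miR-1a-3p, miR-133a-3p was thus higher in every G93A/WT medium than in either WT/WT medium, while the G93A/G93A media lay on both sides. The mean ratio was 0.61 log2 units higher in G93A/WT than in WT/WT (exact two-sided permutation test, p = 0.2, adjusted p = 0.6 over the 9 ratio tests). That p is the smallest that 3 arrays against 2 can give, so this test cannot reach 0.05. The exact two-sided permutation test gave p = 0.8 for a difference of 0.10 (G93A/G93A minus WT/WT) and p = 0.3 for -0.50 (G93A/G93A minus G93A/WT, where 0.1 is the smallest possible).

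The ratio of miR-133a-3p over its near copy miR-133b-3p was likewise highest on average in G93A/WT, but its mean in G93A/G93A lay below that in WT/WT. In log2 units it was -1.86, -1.35 and -0.95 in G93A/G93A media, -1.10, -1.03 and -1.01 in G93A/WT media and -1.46 and -1.17 in WT/WT media. The G93A/WT values were the most alike and lay above both WT/WT values. Their mean exceeded that of WT/WT by 0.27 (exact two-sided permutation test, p = 0.2, the smallest possible), while G93A/G93A minus WT/WT was -0.07 and G93A/G93A minus G93A/WT -0.34 (exact permutation p = 1 and 0.4). miR-1a-3p over its seed relative miR-206-3p differed by 0.35 (G93A/G93A minus WT/WT), 0.21 (G93A/WT minus WT/WT) and 0.14 (G93A/G93A minus G93A/WT), with exact permutation p = 0.4, 0.4 and 0.5. None of the 9 ratio tests had an adjusted p under 0.6.

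**Figure D2:**
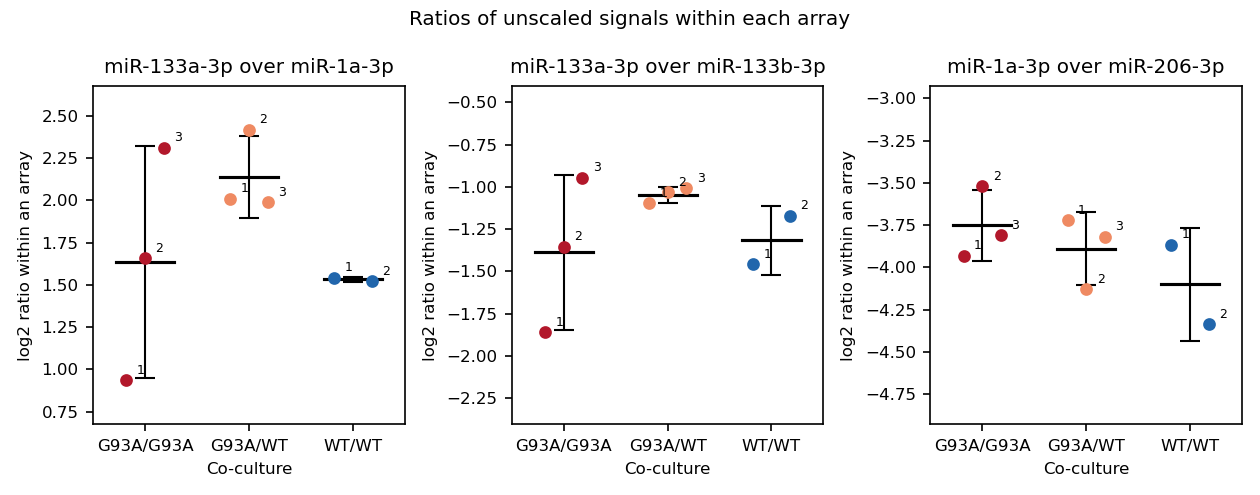
Log2 ratios of unscaled signals within each array for 3 pairs of muscle miRNAs (vertical axis), by co-culture, 1 numbered point per array with the mean and ± 1 SD; all panels span the same width. In both left panels the G93A/WT points lie above the WT/WT points and the G93A/G93A points scatter widely, from 0.93 to 2.31 for miR-133a-3p over miR-1a-3p.

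mmu-miR-133a-5p, the passenger strand of miR-133a, was detected only on the 3 G93A/WT arrays and on none of the other 5. Its unscaled signal there was 3.51, 4.84 and 3.85 array units, with scanner errors of 1.04, 1.12 and 1.07, that is, 23.1 to 29.7% of the signal. These signals were dim: counted from the dimmest, miR-133a-5p stood 32nd of 497, 58th of 563 and 43rd of 520 detected miRNAs. After scaling they were 3.28, 2.87 and 2.91 (mean 3.02 ± 0.22, SD, n = 3).

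Where a group lacks a detected signal, at most a bound on the fold can be given. Here it was taken against the lowest detected signal of each array of that group after scaling. That signal belongs to other miRNAs, and the limit for miR-133a-5p, detected at 3.36 to 4.32 times its error, was not measured. If miR-133a-5p were detectable down to that signal, it was at least 1.74-fold higher in G93A/WT than in WT/WT media. Under the same condition it was at least 1.82-fold lower in G93A/G93A than in G93A/WT media. It entered the fit, which asks for detection on at least 2 arrays, through the G93A/WT arrays alone, and the other 5 arrays were all set to one floor of 1.52 scaled units. The adjusted p in limma (0.00254 for G93A/WT against WT/WT and 0.00101 for G93A/G93A against G93A/WT) is therefore no independent evidence of a difference. No value can be given for G93A/G93A against WT/WT, where it was not detected on any array. Arrays set to one value also add no spread between replicates. With the floor doubled, the adjusted p in limma was 0.675 for G93A/WT against WT/WT and 0.573 for G93A/G93A against G93A/WT, and with quantile normalization 0.584 and 0.484.

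With the slide row taken into account the fitted log2 difference stayed at 0.99 for G93A/WT minus WT/WT and -0.99 for G93A/G93A minus G93A/WT. It could not move, because both WT/WT arrays, which lie in different rows, were set to the same floor. The adjusted p did change, and it remains no independent evidence of a difference. For G93A/WT against WT/WT it was 0.0642 in limma within the first row, where 3 arrays stand against WT/WT 1 alone, and 0.0235 with the row as a block. With the row as a block, G93A/G93A against G93A/WT had an adjusted p of 0.169 in limma. With each array floored at its own lowest detected signal, a choice made after seeing the data, G93A/WT against WT/WT had an adjusted p of 0.0609.

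Brightness differed between the arrays, with the highest summed signals in G93A/WT, and the level of miR-133a-5p was close to the limit of detection. At the mean scaled level of miR-133a-5p, the unscaled signal would have been 2.61, 2.30 and 3.10 on the G93A/G93A arrays and 2.10 and 2.67 on the WT/WT arrays. The lowest signal detected there was 1.34, 1.50 and 1.52 in G93A/G93A and 1.31 and 1.40 in WT/WT. A signal at the mean scaled level would thus have been brighter than the dimmest detected miRNA on each of the 5 arrays. It would also have been dimmer than 3.51, the lowest signal at which miR-133a-5p itself was detected, with an error of 1.04. Whether miR-133a-5p would be detected at such a signal was not tested. That dimmest one is another miRNA, and the limit for miR-133a-5p itself was not measured. Few miRNAs were detected below a signal at the mean scaled level: 13, 8 and 14 on the G93A/G93A arrays and 9 and 13 on the WT/WT arrays. Of the 7 miRNAs detected on all G93A/WT arrays at a mean scaled level between 2.87 and 3.28, the range of miR-133a-5p itself, 4 were on none of the other 5 arrays, 3 on 1 to 4 of them and 0 on all 5.

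**Figure D3:**
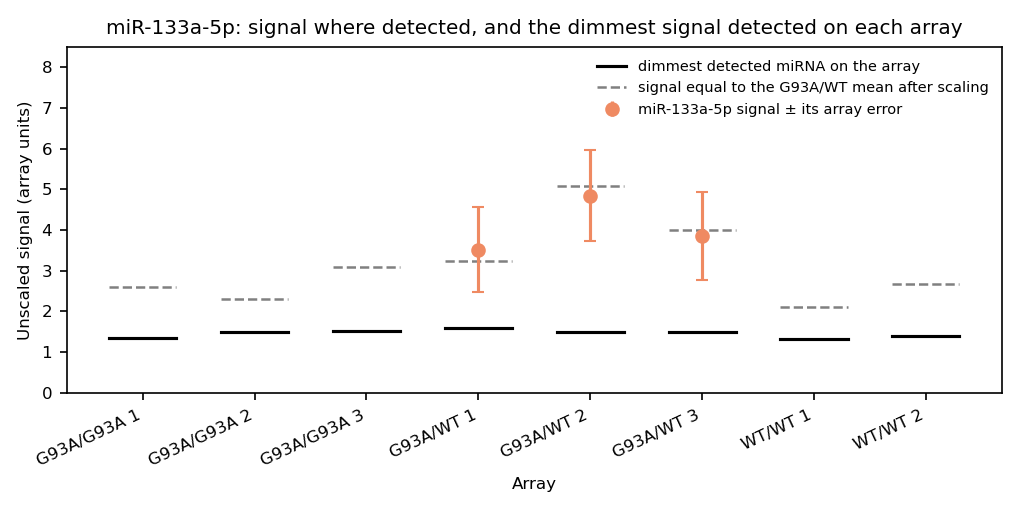
Unscaled signal of miR-133a-5p (points, array units, with the scanner's error as bars) on the 3 arrays that detected it, beside the dimmest detected miRNA of every array (solid lines) and the signal that would equal the G93A/WT mean after scaling (dashed lines). The points lie at 3.51, 4.84 and 3.85. On the 5 arrays without a point the dashed line, at 2.10 to 3.10, lies above the solid line, at 1.31 to 1.52, and below every point. The solid lines belong to other miRNAs, and the limit for miR-133a-5p was not measured.

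The authors' deposited table of processed values holds another picture of miR-133a-5p. It lists 0.343, 0.331 and 0.309 for the G93A/G93A media, 2.80, 0.253 and 0.265 for the G93A/WT media and 0.317 and 0.315 for the WT/WT media, so in the authors' deposited table G93A/WT 1 alone stands above the rest. Over all mouse miRNAs, 64 values that the array files call detected are listed under 1 in the authors' deposited table, of which 63 are on G93A/WT arrays, and 33 of these on G93A/WT 3. With the values of the authors' deposited table, G93A/WT minus WT/WT was 0.86 for miR-133a-5p, with an adjusted p of 0.641 in limma. For miR-133a-3p the authors' deposited table gives 311, 621 and 888 in G93A/G93A, 685, 841 and 809 in G93A/WT and 453 and 464 in WT/WT media, in the same order over the groups as the scaled signals.

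The detection pattern of miR-133a-5p was shared by 11 other miRNAs: 12 were detected on exactly the 3 G93A/WT arrays, against 0 on exactly the 3 G93A/G93A arrays and 0 on exactly the 2 WT/WT arrays. The 5 nearest to miR-133a-5p in mean scaled signal were miR-6990-5p (3.00), miR-28a-5p (3.08), miR-6391 (3.17), miR-450a-2-3p (2.72) and miR-411-5p (3.49). miR-28a-5p and miR-411-5p are, like miR-133a-5p, strands whose partner was detected on all 8 arrays. Among the 263 miRNAs with 1 arm on all 8 arrays, miR-133a, miR-28a and miR-411 were the 3 whose other arm was detected on exactly the G93A/WT arrays. Of 723 pairs of arms, both were detected on all arrays of the group for 26 in G93A/G93A, 32 in G93A/WT and 24 in WT/WT. In the same groups 260, 278 and 278 pairs had 1 arm on all arrays and the other on none. Neither arm was detected on any array for 390, 350 and 407 pairs.

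The 5p arms of miR-1a, miR-133b and miR-206 were not seen. miR-1a-1-5p and miR-1a-2-5p, the passenger strands of the 2 miR-1a hairpins, were detected on no array, nor were miR-133b-5p and miR-206-5p, whose sequences are given above. Of the 18 muscle arms, 5 were detected on all arrays (miR-1a-3p, miR-133a-3p, miR-133b-3p, miR-206-3p and miR-208a-5p), 11 on none, miR-133a-5p on 3 and miR-499-5p on G93A/WT 2 alone, at a signal 3.11 times its error. miR-499 and miR-208 lie in myosin genes, miR-208a in that of the cardiac alpha chain.

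Of miR-1a-3p and miR-133a-3p, which were detected on every array, 0 of 2 were called in any comparison. Over all 538 tested miRNAs, 8.55% were called in G93A/G93A against WT/WT, 3.90% in G93A/WT against WT/WT and 10.6% in G93A/G93A against G93A/WT. miR-133a-5p is left out of this count, because it was tested only through the group where it was detected. Groups without overlap were common over the whole array. In G93A/WT against WT/WT, 1 of the 2 (miR-133a-3p) had groups that did not overlap, beside 45.4% of all tested. This held for 0 of 2 in G93A/G93A against WT/WT, beside 40.7%, and for 0 of 2 in G93A/G93A against G93A/WT, beside 34.8%.

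The other 3 tested muscle arms were called in no comparison. miR-133b-3p had scaled signals of 1133, 1676 and 1640 in G93A/G93A, 1396, 1652 and 1517 in G93A/WT and 1368 and 1100 in WT/WT media. Its G93A/WT media lay above the WT/WT media, as those of miR-133a-3p did, by 0.31 log2 units (adjusted p = 0.360 in limma). miR-206-3p had 2486, 2376 and 2401 in G93A/G93A, 2131, 2645 and 2678 in G93A/WT and 2486 and 3435 in WT/WT media. The highest of these was WT/WT 2, and G93A/G93A minus WT/WT was -0.27 (adjusted p = 0.351 in limma). miR-208a-5p differed by 0.45, 0.13 and 0.31 in the comparisons G93A/G93A against WT/WT, G93A/WT against WT/WT and G93A/G93A against G93A/WT (adjusted p = 0.335, 0.774 and 0.392 in limma). Over the 5 muscle arms detected on all arrays, the median log2 difference was 0.18, 0.13 and -0.03 in these comparisons, beside -0.07, -0.03 and -0.04 over all 423 common miRNAs. Each median is the value of a single arm: miR-133a-3p, miR-208a-5p and miR-206-3p in turn. miR-208a-5p was dim, at 5.61 to 12.4 scaled units, and its partner miR-208a-3p was detected on no array.

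Across the 8 arrays, miR-133a-3p and miR-1a-3p did not follow each other. Pearson's r between their log2 scaled signals was 0.14 (Spearman's rho 0.21), a description over 8 arrays that share a slide and a scaling. Before scaling r was 0.91, when both carried the brightness of their array. miR-133a-3p followed miR-133b-3p more closely, with r = 0.85 (rho 0.81), 11th among the 422 other common miRNAs. miR-1a-3p and its seed relative miR-206-3p had r = -0.04.

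By the same measure the 5 profiles most like that of miR-133a-3p were miR-675-3p (r = 0.98), miR-451a (0.94), miR-19a-3p (0.93), miR-323-3p (0.91) and miR-196b-5p (0.89). miR-675 is made from the imprinted H19 transcript, miR-451a is the main miRNA of red blood cells, miR-323 comes from the imprinted Dlk1-Dio3 region and miR-196b lies among the Hoxa genes. miR-451a had log2 scaled signals of 9.64, 10.15 and 10.28 in G93A/G93A, 10.13, 10.22 and 10.33 in G93A/WT and 9.84 and 9.72 in WT/WT media. As for miR-133a-3p, its lowest value was in G93A/G93A 1 and all its G93A/WT values lay above both WT/WT values, though it spanned 0.69 log2 units against 1.45 for miR-133a-3p. miR-675-3p had 4.93, 5.34 and 5.55 in G93A/G93A, 5.38, 5.57 and 5.41 in G93A/WT and 5.22 and 5.12 in WT/WT media, again lowest in G93A/G93A 1.

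Without G93A/G93A 1 and WT/WT 2, the 2 arrays farthest from the median of miR-133a-3p, r was 0.95 with miR-675-3p and 0.92 with miR-451a, but 0.81 with miR-19a-3p, 0.84 with miR-323-3p and 0.69 with miR-196b-5p. With deviations from the group means, r was 0.97 with miR-675-3p, 0.96 with miR-451a, 0.91 with miR-19a-3p, 0.89 with miR-323-3p and 0.85 with miR-196b-5p. miR-451a belongs to a list of red cell and serum miRNAs, of which 5 were on the array and 4 detected on every array. Its sum was 2048 to 2695 scaled units in G93A/G93A, 2386 to 2657 in G93A/WT and 2268 to 2344 in WT/WT media, and the red cell miRNA miR-144-3p was on no array. The other members on all arrays had r of -0.05 (miR-16-5p), 0.52 (miR-92a-3p) and 0.01 (miR-486a-5p) with miR-133a-3p. With deviations from the group means these were -0.19 (miR-16-5p), 0.94 (miR-92a-3p) and 0.69 (miR-486a-5p). The part of red cells or serum in the level of miR-133a-3p was not tested.

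For miR-1a-3p the 5 most like profiles were less alike: miR-652-5p (r = 0.66), miR-92a-3p (0.58), miR-128-3p (0.55), miR-3473g (0.54) and miR-7068-5p (0.54). None of the 5 was among those most like miR-133a-3p. With so narrow a range of miR-1a-3p, these values describe differences of at most 0.46 log2 units between arrays.

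**Figure D4:**
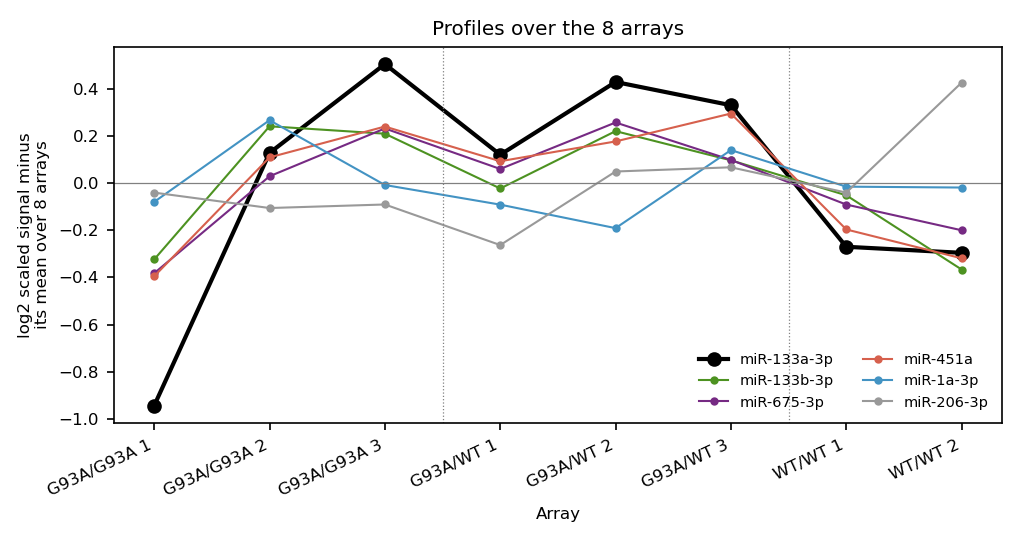
Log2 scaled signal minus its own mean over the 8 arrays (vertical axis) for miR-133a-3p, miR-1a-3p and 4 other miRNAs, array by array along the horizontal axis; dotted lines part the 3 co-cultures. miR-133a-3p (black) has its lowest value on G93A/G93A 1, where miR-133b-3p, miR-675-3p and miR-451a are also low or lowest, while miR-1a-3p and miR-206-3p follow other paths.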

How the data were processed

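Per the labels' protocols, medium from each co-culture was extracted 3 times with TRIzol LS (200 µl each), extracts of one sample were pooled, and 150 ng of RNA of 18 to 26 nucleotides was labelled with Cy3. The deposited array files hold the scanner software's total signal per miRNA, an intensity in linear array units, with its error and detection call; undetected miRNAs are listed at 0.1. The authors also deposited a table of processed intensity values (492 mouse miRNAs), made in a way that neither the labels nor the file headers record. Its log2 values correlated with the array signals at r of 0.970 to 0.999 per array, its scale is linear, and its medians per array ran from 23.2 to 26.5.

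Signals were scaled to a common 75th percentile over the 423 miRNAs detected on all arrays, floored at 1.52 and taken to log2. The 538 miRNAs detected on at least 2 arrays were fitted together with limma 3.58.1 (R 4.3.3; Benjamini-Hochberg, threshold 0.05), with all 3 groups sharing one spread. The fit was tested on simulated data. Ratios used exact permutation tests (SciPy 1.17.1, Python 3.11.15). Each sample is called a biological replicate in the labels, but whether each came from other pups is not stated, so p-values measure the spread between these media. The number of arrays limits the precision.

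The members and lists were chosen with earlier results of these data known. Named were the 3 members, all muscle family arms, the 5 profiles most like miR-1a-3p and miR-133a-3p (Pearson's r), the 5 miRNAs of the same detection nearest in signal to miR-133a-5p and the passenger arms tested. The mixed co-culture with the chambers exchanged was not analysed here. Alternatives were other scalings, floors and filters, the authors' values, slide row and replicate number as blocks, and each array left out.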

Additional observations from a re-analysis of the deposited data

How the results depend on the processing

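The signs of the small differences of miR-1a-3p were not stable: G93A/WT minus WT/WT (-0.03) was 0.74 without scaling, 0.0745 after quantile normalization and 0.0866 with the authors' values, and G93A/G93A minus G93A/WT (0.11) was -0.50 without scaling. miR-133a-3p, G93A/WT minus WT/WT, passed without scaling alone (1.35). miR-133a-5p lost its call against WT/WT with quantile normalization (0.17), the authors' values (0.86), the doubled floor (0.0375), within 1 slide row (0.99) and, added after seeing the data, each array's own floor (0.80); against G93A/WT, G93A/G93A lost it with quantile normalization (-0.17), the authors' values (-0.81), the doubled floor (-0.0375) and the row as a block (-0.99). miR-133a-5p entered the main fit through the G93A/WT arrays alone, with the other 5 arrays at one floor. Passing under an alternative therefore shows no robustness. Its adjusted p in limma over all alternatives ran from 0.000233 to 0.675 and from 9.21e-05 to 0.573. The filter on detection on all 8 arrays removes miR-133a-5p. The cause was not tested. Leaving out each array in turn gave, for G93A/G93A minus WT/WT, G93A/WT minus WT/WT and G93A/G93A minus G93A/WT, -0.027 to 0.15, -0.12 to 0.0412 and 0.004 to 0.20 for miR-1a-3p, and -0.12 to 0.60, 0.51 to 0.66 and -0.70 to 0.0233 for miR-133a-3p. For miR-133a-5p it gave 0.93 to 1.03 (G93A/WT minus WT/WT) and -1.03 to -0.93 (G93A/G93A minus G93A/WT). Leaving out an array at the floor could not change these. The same ranges were -0.24 to 0.45, 0.47 to 0.68 and -0.84 to -0.15 for the ratio of miR-133a-3p over miR-1a-3p, -0.29 to 0.16, 0.12 to 0.41 and -0.56 to -0.10 over miR-133b-3p, and 0.11 to 0.58, -0.0238 to 0.45 and 0.02 to 0.23 for miR-1a-3p over miR-206-3p. Counts of called miRNAs (46, 21 and 57) became 14, 130 and 150 without scaling, 11, 11 and 31 without a filter, and 7 to 57, 7 to 61 and 38 to 122 with an array left out. In G93A/G93A against WT/WT the count was 29 with detection on all arrays, 17 with only these groups in the fit, 7 with the row as a block and 9 within a row. In G93A/WT against WT/WT it was 5 with the authors' values, 34 with the doubled floor, 39 with detection on all arrays of 1 group, 43 with only these groups in the fit and 8 with each array's own floor. limma called 0 in G93A/WT against WT/WT with detection on all arrays (103 at an unadjusted p under 0.05) and 0 in G93A/G93A against G93A/WT with the row as a block (73). Higher against lower calls in the 3 comparisons were 20 and 26, 17 and 4, 29 and 28, but 5 and 28, 17 and 11, 28 and 27 with median scaling, 18 and 20, 6 and 10, 32 and 16 with quantile normalization, and 7 and 7, 130 and 0, 1 and 149 without scaling. Deviations from the group means had r of -0.35 to 0.21 between samples with the same replicate number and -0.21 to 0.32 between others. With groups of 2 or 3 arrays this cannot show whether the numbers pair the samples. With the replicate block the counts were 10, 8 and 37. In that fit miR-1a-3p gave 0.05, -0.06 and 0.11, and miR-133a-3p 0.02, 0.41 and -0.40. There miR-133a-5p gave 1.00 and -0.99 (adjusted p = 0.0366 and 0.0113 in limma), again tested through the G93A/WT arrays alone. Scaling to the percentile over all mouse miRNAs was not run, because on 3 arrays it falls on an undetected miRNA.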
